A study of Mus musculus with 12 samples.

Results

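The 10 genes described here encode secreted products of the exocrine pancreas that turned up in colon RNA, and they were chosen with their colon levels known. They are *Cela1*, *Spink1*, *Sycn*, *Klk1*, *Clps*, *Ctrb1*, *Reg1*, *Cpa1*, *Cela2a*, and *Pnlip*, and each was found by its symbol as 1 of the 54532 genes in the tables of the 12 libraries. Their levels are therefore a description, and no member was tested. The libraries come from distal colon and urinary bladder of male mice aged 5 to 7 weeks, with 3 libraries for each genotype and tissue. All mice carried floxed *Yap1* and *Wwtr1* alleles on a mixed background and were injected with tamoxifen for 5 days, 1 mg per mouse and day, and tissue was taken on day 7 after the first dose. Y/T KO mice also carried Myh11-CreERT2, a tamoxifen-activated Cre driven by the smooth muscle myosin promoter and placed on the Y chromosome, whereas Ctrl mice were Cre-negative. Colon was sequenced from Ctrl mice 786, 787, and 788 and from Y/T KO mice 759, 780, and 783. Bladder was sequenced from Ctrl mice 784, 785, and 788 and from Y/T KO mice 780, 782, and 783, so 3 of the 9 mice gave both tissues.

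Acinar cells of the pancreas make digestive enzymes as inactive precursors, store them in zymogen granules, and release them into the duct that leads to the gut. Their program depends on PTF1, a complex built around the transcription factor PTF1A. Some of these genes are also known from other epithelia, including secretory and absorptive cells of the intestine, so an enzyme transcript in colon RNA does not by itself name the cell that made it. The pancreas of the mouse lies as diffuse lobules in the mesentery.

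Expression is given in TPM, the share of a gene among the transcripts of its library, corrected for transcript length. TPM keeps no read counts, and the aligned sequence per library ran from 2.80 to 3.94 gigabases. A value listed at 0 can also be a failed estimate, since *Gapdh*, which is used by every cell, stood at only 3.98 to 35.1 TPM and 6 of the 6907 genes with a mean colon level of at least 20 TPM were listed at 0 in some colon. The colon libraries held colon epithelial markers at 21526 to 26965 TPM in sum over 16 genes, against 245 to 554 TPM in the bladders, although the goblet cell mucin *Muc2* was listed at only 0.0288 to 0.917 TPM in the colons. *Yap1* stood at 45.8 to 54.9 TPM across Ctrl colons and 41.3 to 47.0 TPM across Y/T KO colons, and *Wwtr1* at 16.8 to 21.5 and 17.9 to 22.7 TPM, so neither separated the colon libraries by genotype. In the bladder, *Yap1* stood at 98.6 to 110 TPM in Ctrl and 69.4 to 72.1 TPM in Y/T KO, and *Wwtr1* at 32.5 to 61.6 and 48.3 to 60.8 TPM. Genotypes are taken from the labels. The summed level of 6 smooth muscle genes was 7366 to 8103 TPM across Ctrl colons and 4838 to 5668 TPM across Y/T KO colons. The bladders of mice 784, 783, and 780 stood apart by prostate transcripts, with the secretory gene *Sbp* at 27206 to 39648 TPM against 14.3 to 35.3 TPM in the other 3 bladders.

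The colon libraries showed 2 kinds of member. *Cela1*, *Spink1*, *Sycn*, *Klk1*, and *Clps* were abundant in all 6 colons, with a summed level of 5334 to 8803 TPM, or 0.533% to 0.880% of all TPM. *Ctrb1*, *Reg1*, *Cpa1*, *Cela2a*, and *Pnlip* were present in the 3 Ctrl colons and at or near 0 in the 3 Y/T KO colons, with a sum of 0.344 to 120 TPM. This division was made after the values were seen and was not tested. In bulk tissue, fewer cells of a type and less RNA per cell cannot be told apart.

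**Figure D1:**
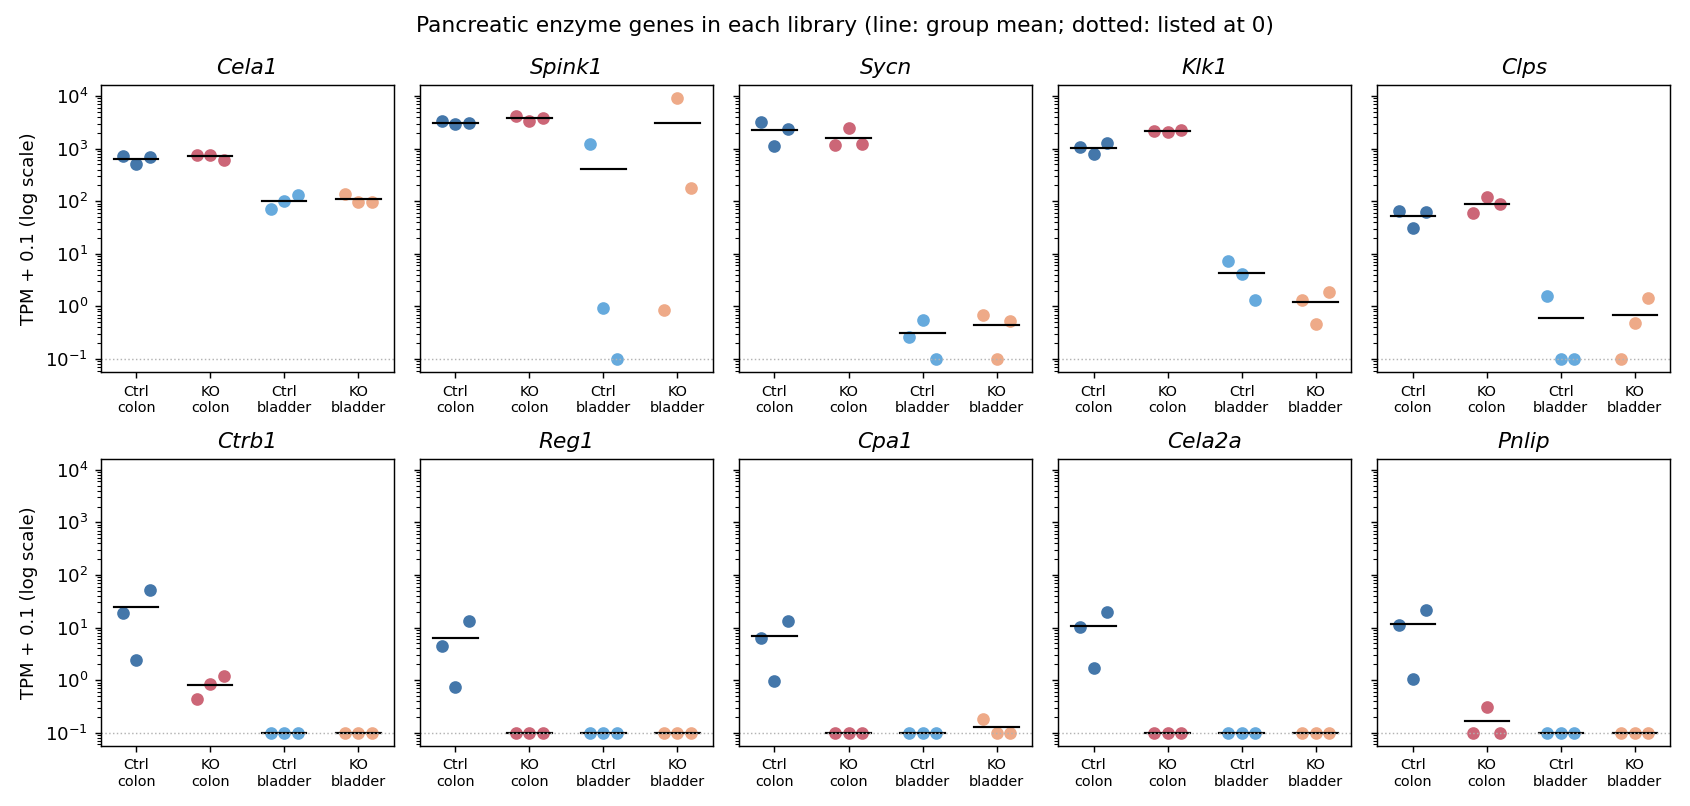
TPM plus 0.1 on a log axis for each of the 10 members, with 1 point per library, 3 libraries per group, and a line at the group mean. The upper 5 genes are high in all 6 colons, whereas the lower 5 genes are above 0.5 TPM in every Ctrl colon and, apart from *Ctrb1*, at or below 0.202 TPM in every Y/T KO colon.

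*Ctrb1* encodes chymotrypsinogen B, the precursor of a protease that cuts after aromatic residues (ENSMUSG00000031957, GRCm38 chromosome 8 from 111686519 to 111691010, minus strand). Its level was 18.9, 2.31, and 52.1 TPM in the colons of Ctrl mice 788, 786, and 787, and 0.344, 0.744, and 1.08 TPM in those of Y/T KO mice 759, 783, and 780. It was listed at 0 in all 6 bladders. All Ctrl colons were above all Y/T KO colons, but the Ctrl mean of 24.4 TPM had an SD of 25.4 (n = 3), since the highest Ctrl colon was 22.5-fold above the lowest. The log2 difference of Y/T KO from Ctrl was -4.10 (SE 1.15) on the log2(TPM + 0.1) scale. It was -3.14 with a pseudocount of 1 TPM, -5.39 without the colon of Ctrl mouse 786, and -3.08 without that of Ctrl mouse 787.

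*Pnlip*, the triglyceride lipase of pancreatic juice (ENSMUSG00000046008, chromosome 19 from 58670365 to 58681786 in the files, plus strand), stood at 11.3, 0.970, and 21.8 TPM in the colons of Ctrl mice 788, 786, and 787. It was listed at 0 in the colons of Y/T KO mice 759 and 780 and stood at 0.202 TPM in that of mouse 783. *Cela2a*, a chymotrypsin-like elastase (ENSMUSG00000058579, chromosome 4 from 141814962 to 141826160, minus strand), stood at 10.01, 1.63, and 19.9 TPM in the same Ctrl mice and was listed at 0 throughout the Y/T KO colons. Both enzymes thus had their highest level in mouse 787 and their lowest Ctrl level in mouse 786, as *Ctrb1* had.

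*Cpa1*, a carboxypeptidase that trims residues from the C-terminal end of peptides (ENSMUSG00000054446, chromosome 6 from 30639218 to 30645363, plus strand), stood at 6.13, 0.851, and 13.1 TPM for Ctrl mice 788, 786, and 787. *Reg1*, which encodes the acinar secretory protein lithostathine (ENSMUSG00000059654, chromosome 6 from 78422711 to 78428667, plus strand), stood at 4.35, 0.632, and 13.4 TPM. Both were listed at 0 in the 3 Y/T KO colons. For *Reg1*, *Cpa1*, *Cela2a*, and *Pnlip*, the only bladder library with a value above 0 was that of Y/T KO mouse 782, with 0.0837 TPM of *Cpa1*. Mouse 788 gave both tissues, and the bladder of this mouse was listed at 0 for *Ctrb1* and for the other 4 enzymes, which all stood above 4 TPM in its colon.

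The sequence behind these values was small in the lowest Ctrl colon. Coverage times transcript length gave about 52.7 kilobases of aligned sequence for *Pnlip* in mouse 787, 30.2 kilobases in mouse 788, and 2.63 kilobases in mouse 786. For *Ctrb1* it gave 74.6, 29.7, and 3.70 kilobases in these mice and 0.606 to 1.62 kilobases in the Y/T KO colons. No fold is given for *Reg1*, *Cpa1*, *Cela2a*, and *Pnlip*, since the Y/T KO libraries were listed at or near 0 and the fitted difference depends on the pseudocount.

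Across genotypes in the colon, 5 of the 10 members were lower in each Y/T KO library than in any Ctrl library, which was the case for 8.28% of the 17500 genes that passed the filter of 0.5 TPM in 3 libraries. A further 2 members, *Spink1* and *Klk1*, were higher in each Y/T KO library than in any Ctrl library, as were 7.52% of all genes, and 3 overlapped. Nothing is read from these shares, because the members were chosen on these values. The median log2 difference of the 10 members was -2.25, with 4 higher and 6 lower, beside 0.0063 over all genes. No member lay near this median, which falls between *Sycn* at -0.40 and *Ctrb1* at -4.10. *Reg1*, *Cpa1*, *Cela2a*, and *Pnlip* passed the filter only through the Ctrl colons. Without these 4 the median was 0.26, a setting chosen after the values were seen.

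The low members kept nearly the same proportions in the 3 Ctrl colons, while their levels differed widely. *Pnlip* was 0.601, 0.420, and 0.417 times the level of *Ctrb1* in mice 788, 786, and 787. *Reg1* was 0.231, 0.273, and 0.257 times that level. Over *Reg1*, *Cpa1*, *Cela2a*, and *Pnlip*, the ratio to *Ctrb1* varied 1.18- to 1.85-fold between these mice, whereas the levels in mouse 787 were 12.2- to 22.4-fold above those in mouse 786. The 5 abundant members behaved the other way. Their levels in mouse 787 were 1.05- to 2.16-fold those in mouse 786, and their ratios to *Ctrb1* varied 10.4- to 21.5-fold. With the summed TPM of 24 other acinar enzyme genes as the denominator, the ratio varied 1.35- to 2.58-fold between Ctrl colons for *Ctrb1*, *Reg1*, *Cpa1*, *Cela2a*, and *Pnlip* and 4.75- to 9.81-fold for the abundant members. *Ctrb1* itself was 22.5-fold higher in mouse 787 than in mouse 786, and the summed TPM also differed between mice. A member of steadier level must then show widely varying ratios. The 2 kinds were divided on these same levels, so this contrast is no separate evidence for the division.

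**Figure D2:**
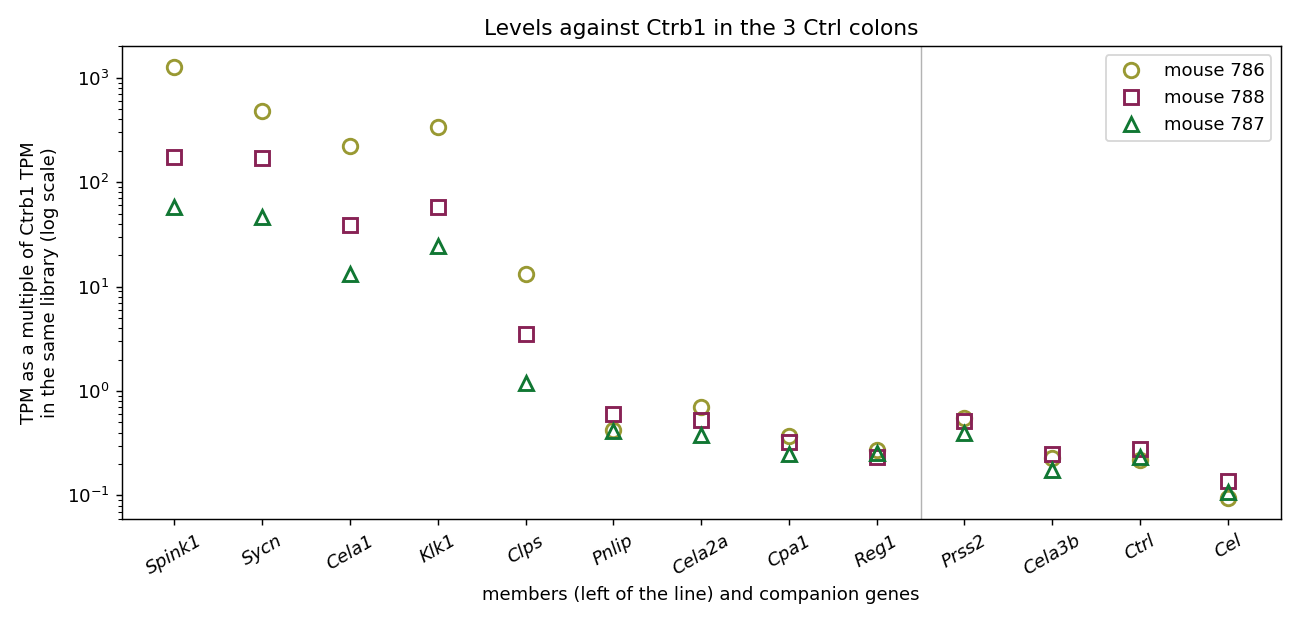
Level of each gene as a multiple of the *Ctrb1* level in the same library, on a log axis, for the 3 Ctrl colons, with members left of the line and 4 of the 24 companion acinar genes right of it. The 3 symbols nearly coincide for *Pnlip*, *Cela2a*, *Cpa1*, and *Reg1* and for these companions, with ratios between 0.0951 and 0.705, and lie 10.4- to 21.5-fold apart for *Spink1*, *Sycn*, *Cela1*, *Klk1*, and *Clps*.

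A list of 24 other acinar enzyme genes (trypsinogens, elastases, carboxypeptidases, lipases, amylases, and related products) was examined for comparison. Of these, 6 were listed at 0 in all 12 libraries and 14 reached 0.5 TPM in some Ctrl colon. Among the Ctrl colons all 14 were highest in mouse 787, and 13 followed the order of 787 above 788 above 786, the order of *Ctrb1*. The summed level of the 24 genes was 59.0, 13.0, and 134 TPM in the colons of Ctrl mice 788, 786, and 787, against 7.69 to 10.6 TPM across Y/T KO colons and 2.01 to 3.38 TPM in the bladders. Of the 14 genes, 8 were listed at 0 in every Y/T KO colon and 4 were above 0 in every Y/T KO colon.

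The anionic trypsinogen gene *Prss2* stood at 9.67, 1.26, and 20.7 TPM in the colons of Ctrl mice 788, 786, and 787 and was listed at 0 elsewhere. *Try5*, another trypsinogen gene, stood at 7.50, 0.309, and 22.7 TPM and was likewise listed at 0 elsewhere, as was *Try4* with 9.06, 0.311, and 17.2 TPM. *Cel*, the bile salt-activated lipase, stood at 2.60, 0.220, and 5.67 TPM, with at most 0.0491 TPM across Y/T KO colons. These genes thus had the pattern of *Pnlip* and *Cela2a*. *Pnliprp1*, a lipase relative, did not share it and stayed above 2 TPM in every colon, with 12.5 TPM in mouse 787 and 2.83 to 4.39 TPM across Y/T KO colons. The chymotrypsin-like gene *Ctrl*, which shares its name with the control group, stood at 5.30, 0.505, and 12.03 TPM across Ctrl colons and at 0.267, 0.945, and 3.26 TPM across Y/T KO colons, so its genotypes overlapped. The ratio to *Ctrb1* varied 1.29-fold between Ctrl colons for *Ctrl* and 1.37-fold for *Prss2*, but 3.56-fold for *Try4*.

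**Figure D3:**
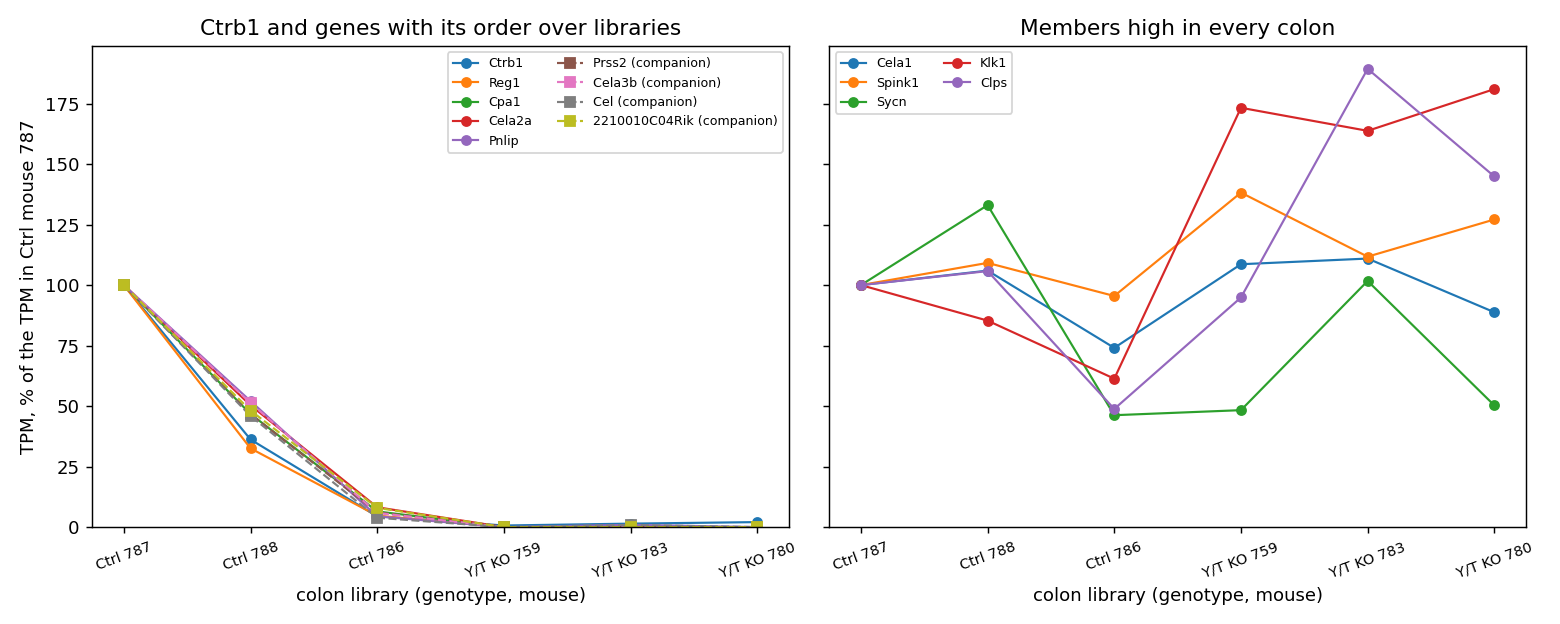
TPM in each of the 6 colon libraries as a percentage of the TPM of the same gene in Ctrl mouse 787, with members as circles and companion genes as squares, and lines joining the values of a gene. In the left panel every gene is highest in mouse 787, then in 788, then in 786, and lies near 0 in the Y/T KO colons, whereas in the right panel the 5 abundant members stay high in every colon.

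Of the companions, 7 passed the filter in the colon, and the fitted difference was below 0 for all 7, with a median of -1.76. By limma with Benjamini-Hochberg adjustment, 0 of the 7 passed an adjusted p of 0.05, beside 0.137% of all genes, and 4 of the 7 had an unadjusted p under 0.05, beside 9.73% of all genes. The smallest adjusted p from limma was 0.113 for *Prss2*, followed by 0.114 for *2210010C04Rik*, a trypsinogen-like gene, and 0.190 for *Cela3b*, an elastase. When the mouse was entered as a block over all 12 libraries, these 3 genes passed, with an adjusted p from limma of 0.0093, 0.0121, and 0.0301. They passed equally with the 12 libraries in one fit and no block. All 3 were listed at 0 in every Y/T KO colon and entered the test through the Ctrl colons alone. They are also among the 4 genes with an unadjusted p under 0.05, beside *Cpb1*. Nothing is therefore read from that count or from the direction of these 3 genes. In the bladders *Prss2* and *2210010C04Rik* were listed at 0 throughout, and *Cela3b* did not exceed 0.211 TPM. The fits over 12 libraries thus took part of their spread from values at or near 0, and nothing is read from these passes.

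In the bladder, *Cpb1* was the only companion to pass the filter, with a log2 difference of 0.41 (SE 0.31, limma adjusted p = 0.576). Of 1 companion tested, 0 were called there, beside 0.302% of all genes, and 0 had an unadjusted p under 0.05, beside 14.8% of all genes. Between tissues, 7 companions were tested and 6 were higher in the colon at an adjusted p under 0.05 from limma, in a comparison where 31.2% of all 19773 genes were called higher in the colon. Among them were *Pnliprp1* (log2 difference 4.96, SE 0.54), *Prss2* (3.07, SE 0.58), *2210010C04Rik* (2.68, SE 0.53), *Ctrl* (2.37, SE 0.80), and *Cela3b* (2.06, SE 0.61). *Pnliprp1* had every colon above every bladder, whereas the other 4 of these genes overlapped between tissues. *Prss2*, *2210010C04Rik*, and *Cela3b* passed the filter here only through the Ctrl colons, where they are high, so nothing is read from their calls. Without the colon of Ctrl mouse 787 or 788 the count of companions called was 2, and these genes then failed the filter.

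Other pancreatic and neighbouring cell types gave a mixed picture. *Reg2*, a close relative of *Reg1*, stood at 5.46, 0.355, and 12.3 TPM for Ctrl mice 788, 786, and 787 and was listed at 0 in every other library. *Rnase1*, the pancreatic ribonuclease, stood at 5.69, 1.13, and 13.4 TPM in these mice and 0.842 to 1.96 TPM across Y/T KO colons, so that mouse 786 lay within the Y/T KO range. Of 7 islet genes, 3 were listed at 0 in all 12 libraries, among them the insulin genes *Ins1* and *Ins2*. *Ppy*, a hormone of islets and of gut endocrine cells, stood at 9.42 to 22.9 TPM across Ctrl colons and 36.0 to 75.9 TPM across Y/T KO colons, the reverse of the enzymes. Of 5 acinar transcription factor genes, *Ptf1a* was listed at 0 in all 12 libraries and *Rbpjl* did not exceed 0.0844 TPM, whereas *Nr5a2*, which is also active in gut epithelium, stood at 11.1 to 27.6 TPM in the colons.

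Lists for tissue adjoining the colon did not follow the order of the enzymes. The summed level of 8 fat genes was 453, 442, and 170 TPM for Ctrl mice 788, 786, and 787 and 180 to 197 TPM across Y/T KO colons, so the Ctrl colon richest in enzymes was the lowest in fat genes. The summed level of 5 lymphoid genes was 6.25, 13.8, and 14.5 TPM in these Ctrl mice and 5.47 to 9.54 TPM across Y/T KO colons. The summed level of 3 mesothelial genes was 29.9, 34.3, and 33.8 TPM across Ctrl colons and 26.1 to 54.5 TPM across Y/T KO colons. The summed level of 10 small intestinal genes was 75.9, 82.2, and 117 TPM in Ctrl mice 788, 786, and 787 and 69.0 to 269 TPM across Y/T KO colons, most of it from the fatty acid-binding protein genes *Fabp2* and *Fabp6* and from *Ang4*. In this list *Apoa4*, *Defa17*, and *Defa24* were listed at 0 in every library. The part of any of these tissues in the enzyme levels was not tested.

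Genes most like *Ctrb1* and its group over the 6 colons were sought by the correlation of log2(TPM + 0.1) among 17354 genes. The sum planned for this held *Clps*, and its 10 most similar genes, with r between 0.971 and 0.986, held 0 genes of the pancreatic lists. They were *Nudc-ps1*, *Hdhd3*, *Sgf29*, *Cox6a1*, *Gm5075*, *Gm42814*, *Myl6*, *Fkbp2*, *Acot7*, and *Gm16581*. With *Clps* left out, a choice made after the values were seen, the 10 most similar genes had r between 0.980 and 0.989 and 8 of them were pancreatic. These were *Cela3b*, *Amy2a3*, *2210010C04Rik*, *Prss2*, *Reg2*, *Cel*, *Try5*, and *Try4*, beside *Riiad1* and *Rsrp1*. The correlations are over 6 libraries of 2 genotypes and are given as a description.

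The promoters were searched for the paired element bound by PTF1, here written as CACCTG or CAGCTG followed within 25 bases by TTTCCC, on both strands of the 250 bases before the RefSeq start on GRCm38.p6. Of the 10 members, 8 had a RefSeq promoter, and 2 of these 8 held the pair, as did 1 of 20 companions with a promoter (*Prss1*) and 0.581% of all 32851 promoters of that length. The 2 members were *Cela1*, abundant in every colon, and *Ctrb1*, near 0 in the Y/T KO colons, with 4 bases between the boxes in each. They are printed 5′ to 3′ toward the start site on the minus strand with the boxes in capitals, because the members that carry the pair lie on opposite sides of the expression pattern. *Cela1* is from chr15:100687921-100688170 and *Ctrb1* from chr8:111691011-111691260.
Cela1: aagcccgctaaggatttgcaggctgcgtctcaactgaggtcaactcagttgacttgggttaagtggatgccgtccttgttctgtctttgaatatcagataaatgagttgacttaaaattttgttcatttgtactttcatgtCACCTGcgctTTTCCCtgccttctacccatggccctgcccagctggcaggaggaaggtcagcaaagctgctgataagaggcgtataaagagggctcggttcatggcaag
Ctrb1: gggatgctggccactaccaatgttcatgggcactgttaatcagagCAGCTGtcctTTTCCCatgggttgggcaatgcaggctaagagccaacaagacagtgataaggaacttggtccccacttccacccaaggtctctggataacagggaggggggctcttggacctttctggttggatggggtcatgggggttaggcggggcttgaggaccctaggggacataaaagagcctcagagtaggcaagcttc
The pair began 109 bases before the start of *Cela1* and 205 bases before that of *Ctrb1*. TTTCCC alone was found in 5 of the 8 member promoters, 4 of the 20 companion promoters, and 21.9% of all promoters. CACCTG alone was found in 3 of the 8 member promoters, 13 of the 20 companion promoters, and 17.2% of all promoters. For CAGCTG these were 2 of 8, 4 of 20, and 13.0%. The search was first made on windows that reached past the start site, where *Cpa1* also matched. A match describes letters in this window and was not tested for binding.

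Of the members abundant in every colon, *Spink1* had the highest level. It encodes a Kazal-type inhibitor that blocks trypsin activated too early (ENSMUSG00000024503, chromosome 18, minus strand). It stood at 3317, 2901, and 3038 TPM in the colons of Ctrl mice 788, 786, and 787, and 4199, 3395, and 3862 TPM in those of Y/T KO mice 759, 783, and 780, which placed it between ranks 15 and 24 of all genes in a colon library. Every Y/T KO colon was above every Ctrl colon, by a log2 difference of 0.34 (SE 0.17). In the fit of all 12 libraries with the mouse as a block this difference was 0.11.

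*Sycn* encodes syncollin, a protein of the zymogen granule membrane (ENSMUSG00000084174, chromosome 7 from 28540885 to 28542209, plus strand, overlapped on the other strand by *Samd4b*). Its colon level was 3195, 1110, and 2402 TPM for Ctrl mice 788, 786, and 787 and 1160, 2443, and 1208 TPM for Y/T KO mice 759, 783, and 780. The genotypes overlapped, with a log2 difference of -0.40 (SE 0.48), and 3 of the 6 colons stood at 1110 to 1208 TPM and the others at 2402 TPM or above. In the bladder it did not exceed 0.586 TPM.

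*Cela1* encodes an elastase (ENSMUSG00000023031, chromosome 15 from 100674421 to 100687921, minus strand). It was the steadiest member after *Spink1*, with 736, 514, and 694 TPM across Ctrl colons and 754, 770, and 616 TPM across Y/T KO colons. Its log2 difference was 0.19 (SE 0.21), and its genotypes overlapped. Bladder levels of *Cela1* were 70.2, 103, and 131 TPM for Ctrl mice 784, 785, and 788 and 135, 98.0, and 96.8 TPM for Y/T KO mice 782, 783, and 780.

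*Clps* encodes colipase, the cofactor that holds pancreatic lipase on fat droplets (ENSMUSG00000024225, chromosome 17 from 28558149 to 28560766, minus strand). It stood at 65.9, 30.4, and 62.3 TPM across Ctrl colons and 59.1, 118, and 90.3 TPM across Y/T KO colons, a log2 difference of 0.81 (SE 0.40) with overlap. *Clps* and *Pnlip* act together in the gut lumen, but their colon levels went apart. In the 3 Y/T KO colons *Clps* was at 59.1 TPM or above, and *Pnlip* at 0.202 TPM or below.

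*Klk1*, tissue kallikrein, releases kinins from kininogen and is made in pancreas, salivary gland, and kidney (ENSMUSG00000063903, chromosome 7 from 44225360 to 44229618, plus strand). It stood at 1082, 778, and 1269 TPM in the colons of Ctrl mice 788, 786, and 787, and 2198, 2077, and 2296 TPM in those of Y/T KO mice 759, 783, and 780. The genotypes were fully apart, with means of 1043 ± 248 TPM (SD, n = 3) in Ctrl and 2191 ± 110 TPM (SD, n = 3) in Y/T KO, and the log2 difference was 1.13 (SE 0.23). *Klk1* was the abundant member with the largest difference between genotypes, and its order over the Ctrl colons was also 787 above 788 above 786, over a 1.63-fold range.

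Mouse kallikreins are near copies of each other, and reads can be split between them. The longest *Klk1* transcript matched *Klk1b5* at 94.4% identity over 957 aligned bases. Its relatives were low in the colons. *Klk1b5* stood at 0 to 0.761 TPM across Ctrl colons and 0.617 to 2.94 TPM across Y/T KO colons, with overlap, and *Klk1b4* at 0 to 0.302 TPM and 1.33 to 2.55 TPM. *Klk1b3* stood at 0.762 to 1.10 TPM in all 6 colons. In the same way, 313 bases of *Cela2a* matched the overlapping gene *Ctrc* at 99.7%, and *Ctrc* did not exceed 0.0888 TPM.

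Of 13 enzyme relatives also made outside the pancreas, the 3 with the highest mean colon levels were *Zg16*, *Reg4*, and *Pnliprp2*. *Zg16*, a granule lectin of pancreas and goblet cells, stood at 14324 to 21629 TPM across Ctrl colons and 10064 to 18646 TPM across Y/T KO colons. *Reg4*, a secretory cell gene of the colon, stood at 1290 to 1714 and 1379 to 1983 TPM. *Pnliprp2*, a lipase relative, stood at 3.56 to 5.47 and 3.19 to 5.57 TPM. The genotypes overlapped for all 3 genes, and none of them exceeded 3.02 TPM in a bladder.

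Between tissues, 5 members (*Cela1*, *Sycn*, *Klk1*, *Clps*, and *Ctrb1*) had every colon above every bladder, which 13.9% of all genes did. The fitted log2 difference of colon from bladder was above 0 for all 10 members, with a median of 4.23 beside 0.02 over all genes, and *Ctrb1*, *Reg1*, *Cpa1*, *Cela2a*, and *Pnlip* passed the filter only through the colon. The difference was 12.80 (SE 0.55) for *Sycn*, 9.88 (SE 0.44) for *Klk1*, 7.84 (SE 0.79) for *Clps*, and 2.97 (SE 0.16) for *Cela1*. *Sycn* was listed at 0 in 2 bladders and *Clps* in 3, and with a pseudocount of 1 TPM their differences were 10.61 and 5.70. *Klk1* stood at 0.365 to 7.17 TPM and *Clps* at 0 to 1.49 TPM in the bladders. The bladder highest in *Klk1*, that of Ctrl mouse 784, also held its relative *Klk1b24* at 59.1 TPM. Whether reads of such relatives added to *Klk1* there was not tested. Between genotypes the bladder log2 difference of *Klk1* was -1.70 (SE 0.77) with overlap, opposite in sign to that in the colon.

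In the bladder, only *Cela1*, *Spink1*, and *Klk1* of the 10 members passed the filter. None of these separated the genotypes, beside 20.4% of the 18237 genes that passed. *Ctrb1*, *Reg1*, *Cela2a*, and *Pnlip* were listed at 0 in every bladder and so could not separate them. *Sycn*, *Clps*, and *Cpa1*, also below the filter, overlapped as well. Nothing is read from so few genes. *Spink1* differed most between libraries of a group. It stood at 1240 TPM in Ctrl mouse 784 but at 0.812 and 0 TPM for Ctrl mice 785 and 788, and at 9183 and 177 TPM for Y/T KO mice 783 and 780 but at 0.759 TPM in Y/T KO mouse 782. Its bladder log2 difference of 4.51 had an SE of 4.91.

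The same 3 bladders carried other genes at high level. A list of 13 male accessory gland genes, written after these values were seen, held 5 genes listed at 0 in every library, such as the seminal vesicle gene *Svs2*. *Sbp*, the spermine-binding protein of the prostate, stood at 36341, 39648, and 27206 TPM in the bladders of mice 784, 783, and 780. *Pbsn*, prostatic probasin, stood at 967, 33.8, and 311 TPM in these mice and at 0 to 0.728 TPM in the others.

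*Bhlha15*, a factor of acinar and other serous secretory cells, followed the same bladders, with 47.7, 71.5, and 64.5 TPM in mice 784, 783, and 780 and 0.844 to 1.02 TPM in the others. In the colons it stood at 0.853 to 3.70 TPM and was not highest in mouse 787. Among these 3 bladders *Spink1*, *Sbp*, and *Bhlha15* were highest in mouse 783, whereas *Pbsn* was lowest there. In the other 3 bladders *Spink1* did not exceed 0.812 TPM, whereas *Cela1* stood at 103 to 135 TPM. The part of accessory gland tissue in the bladder level of *Spink1* was not tested.

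**Figure D4:**
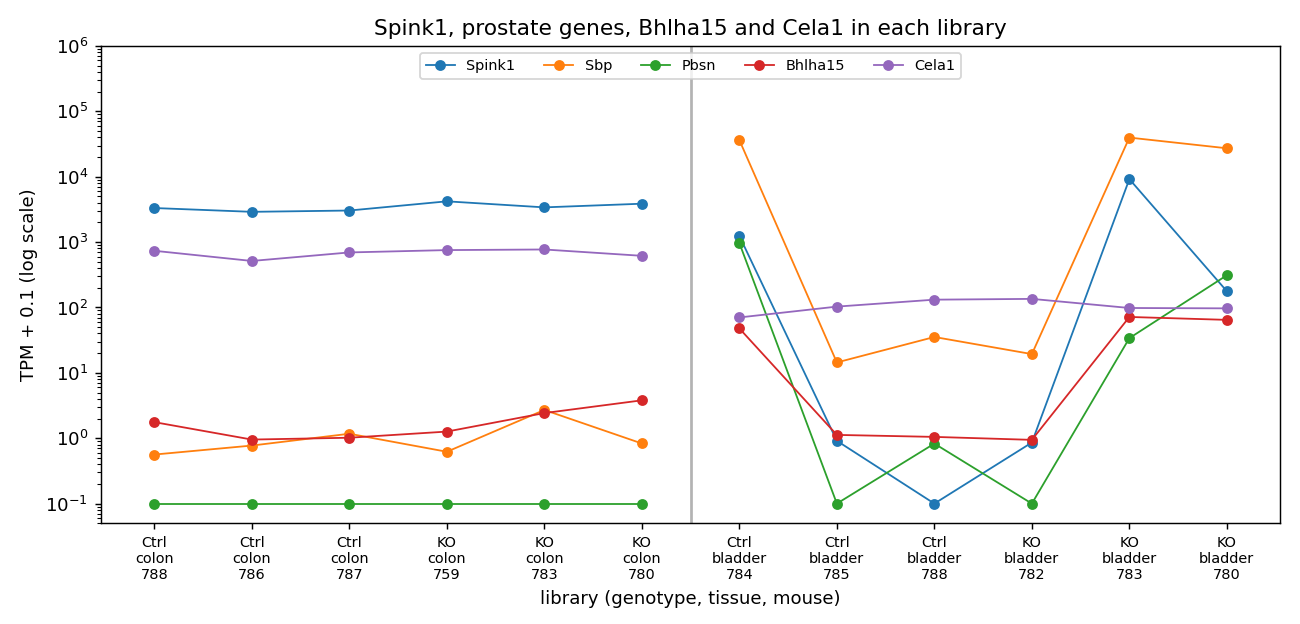
TPM plus 0.1 on a log axis in each library for *Spink1*, the prostate genes *Sbp* and *Pbsn*, *Bhlha15*, and *Cela1*, with colons on the left, bladders on the right, and lines joining the values of a gene within a tissue. In the bladders of mice 784, 783, and 780 *Spink1* stands at 177 to 9183 TPM together with the prostate genes, while *Cela1* stays between 70.2 and 135 TPM in all 6 bladders.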

How the data were processed

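Polyadenylated RNA of 12 libraries was sequenced from stranded libraries. According to the submitters' processing notes, reads were aligned with HISAT2 to GRCm38, and the authors made a gene table for each library with StringTie. Whether strand was used in counting is not given in the sources used here. The deposited TPM, FPKM, and coverage (mean read depth over a gene) were used. Rows of a gene ID were summed. Coverage divided by FPKM gave the aligned bases of a library, and counting error was not estimated.

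TPM was divided by median-of-ratios size factors (0.966 to 1.11). Genes reaching 0.5 TPM in 3 or more libraries of a fit were compared on log2(TPM + 0.1) with limma 3.58.1 in R 4.3.3 (trend and robust options, two-sided) at an adjusted p of 0.05. Differences on this scale understate the change of low genes, and values of libraries are TPM as deposited. Each library is a separate mouse within its group, so p-values measure the spread between mice. The limma steps were tested on simulated data. The colon and bladder of a mouse share its number, which is the source of the pairing. Deviations from the group mean correlated at a mean r of 0.034 within 3 such pairs (-0.0091 to 0.0675) and -0.0069 between 15 others.

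Of 54532 gene IDs, 98.2% had the same bounds in GENCODE M21. The bounds of *Spink1* and *Pnlip* differed there. Similar transcripts were sought with blastn 2.17.0, and tables were made with pandas 2.3.3. Members and lists were chosen with earlier results of these data known. Beside the members, the text names the 5 genes of each list with the highest colon level, genes called by limma, and the 10 most similar genes. Some others, such as *Cel*, *Cpb1*, *Ins1*, *Rbpjl*, *Apoa4*, *Muc2*, and the accessory gland genes, were named after their values were seen. Alternatives were pseudocounts of 0.5 and 1, TPM without rescaling, FPKM, no filter, limma without trend and robust, 12 libraries in one fit, the mouse as a block, and each library left out. Values of some genes that these rules would name are not reported here.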

Additional observations from a re-analysis of the deposited data

How the results depend on the processing

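No companion was called in the colon under any alternative within that tissue, nor without any library (0 to 0), and 3 were called with all 12 libraries in one fit and 3 with the mouse as a replicate block. The bladders that these fits added held the called genes at or near 0. The block changed no other count of calls. In the bladder 0 were called under every alternative run, and 0 to 0 without a library. Between tissues the count of companions called was 10 without the filter and 2 to 6 without a library, with 2 when the colon of Ctrl mouse 788 or 787 was left out. *Prss2*, *2210010C04Rik*, and *Cela3b* failed the filter whenever a Ctrl colon was left out. The median colon difference over the members was 0.19 with FPKM, 0.26 without *Reg1*, *Cpa1*, *Cela2a*, and *Pnlip*, and -2.46 to 0.36 without a library. It turned positive where a Ctrl colon was left out, because these genes then failed the filter, as *Reg1*, *Cpa1*, and *Pnlip* did with FPKM. The median difference of colon from bladder was 3.05 and 2.69 with pseudocounts of 0.5 and 1 TPM, 7.19 with FPKM, and 4.11 to 7.76 without a library, highest without a Ctrl colon. Of 342 alternative values of single members, 340 kept their sign and 18 moved by more than 1 SD. *Cela1* turned to -0.04 without the colon of Ctrl mouse 786 and to -0.08 without the bladder of Ctrl mouse 784. Depth limits the low enzyme values, those of the Y/T KO colons and, among Ctrl colons, of mouse 786. The colon library of mouse 786 held 3.90 gigabases of aligned sequence, the highest of the Ctrl colons. A value listed at 0 gives no lower bound.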
